A study of Mus musculus with 12 samples.

Results

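The genes described here are Gja1, Gja4, Gja5, Gjb1 and Gjb2, 5 of the genes for connexins, the subunits of gap junctions, in adrenal glands of mice transgenic for Ftz-F1 (Nr5a1). They were found by their symbols in the platform's probe-to-gene table, where each of the 5 had 1 probe among the 25344 probes of the array, which stand for 18617 gene symbols. They were selected on their ratios in these samples, Gja1 for a ratio of one sign in every pair, so their means over pairs and at each age are given as a description with no test. The tests on them concern the ages and the sexes. The choice did not rest on these differences, though choosing Gja1 for the same sign in every pair may favour a gene whose pairs are alike.

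Adrenal RNA of a transgenic mouse was hybridized together with that of a wild-type littermate, matched for sex and age, on 2-colour arrays, and each of 6 such pairs was measured on 2 arrays with the dyes exchanged. In the 4-month group, pairs 1 and 3 were male and pair 5 was female, and the transgenic mice of line #56, labelled YAC, carried 2 transgene copies. In the 10-day group, pairs 11 and 13 were male and pair 15 was female, and the transgenic mice of the same line carried 1 copy. Pairs are named by the number of the transgenic mouse, and age and copy number change together. All transgenic mice came from 1 line, and the sources used here name neither the regulatory sequence that drives the transgene nor the cells that express it.

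Connexins assemble in the plasma membrane into hexamers that dock with those of neighbouring cells, and the channels so formed let ions and small second messengers such as cyclic AMP pass. Gja1 encodes connexin43, the main gap junction protein of the adrenal cortex, which is most abundant in the glucocorticoid-producing inner cortex and was studied there for its part in the response to ACTH. Gja4 (connexin37) and Gja5 (connexin40) are best known from vascular endothelium, and Gjb1 (connexin32) and Gjb2 (connexin26) from hepatocytes. Nr5a1 encodes SF-1, a nuclear receptor that drives the steroidogenic genes of the cortex.

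The stretches before the transcription starts of Gja1 and Gjb1 are shown because each held, within the bases from 250 before to 50 after the start, a 7-letter word read by factors known in the adrenal cortex. The NR5A word is one that SF-1 binds. It was searched as AAGGTCA on both strands, and 4.72% of 32851 mouse promoter windows of the same length held it. The AP-1 word was searched as TGACTCA on both strands and occurred in 5.20% of these windows. Sequences are from RefSeq on build GRCm38.p6 and run 5′ to 3′ on the strand of the gene up to the base before the start, with the matched word in capitals.
Gja1, chr10:56377050-56377299, plus strand: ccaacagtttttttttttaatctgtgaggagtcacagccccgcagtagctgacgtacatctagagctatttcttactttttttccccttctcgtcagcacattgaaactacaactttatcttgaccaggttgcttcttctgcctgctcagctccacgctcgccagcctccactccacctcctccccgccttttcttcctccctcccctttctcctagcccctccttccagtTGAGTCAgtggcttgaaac
Gjb1, start 3 of 4, chrX:101381868-101382117, plus strand: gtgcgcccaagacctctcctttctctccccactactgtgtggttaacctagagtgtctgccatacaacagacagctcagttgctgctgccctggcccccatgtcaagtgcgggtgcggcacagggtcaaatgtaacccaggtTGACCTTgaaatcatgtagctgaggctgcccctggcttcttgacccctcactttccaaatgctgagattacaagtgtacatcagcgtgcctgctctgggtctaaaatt
In Gja1 the capitals are an AP-1 word on the opposite strand that begins at position -19 from the start. In Gjb1 they are an NR5A word on the opposite strand that begins at position -108. The windows of Gja4, Gja5, Gjb2 and the other starts of Gjb1 held neither word. A GC box, searched as GGGCGG on both strands and present in 35.7% of all windows, was found at Gja4, Gja5, Gjb2 and Gjb1 start 4, and not at Gja1. These matches describe the letters in the windows only. No file used here measured binding of a factor.

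The ratios of the 2 channels are given on the log2 scale after each array's dye trend was taken off, so that 0 is the level of a typical probe of the same signal. The sources used here do not say whether a ratio is transgenic over wild type or the inverse, and signs are reported as deposited. The transgene's own gene does not settle the direction. Nr5a1 had pair values of -0.46, 0.11 and -0.22 at 4 months and -0.57, -0.65 and -0.79 at 10 days. Its mean over 6 pairs was -0.43 ± 0.33 (SD, n = 6 pairs; limma, adjusted p = 0.104), and the sources do not say whether its probe detects the transcript of the transgene. The labelled tissue was checked on 9 steroidogenic cortex genes, of which 7 had probes in the brightest 25% of all probes, with a median brighter than 98.3% of probes. Empty spots made up 4.30% to 6.59% of each array.

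Gja1 had a negative ratio on every array and in every pair, near 1 unit of log2. On the arrays with the transgenic RNA in Cy3, the corrected log2 ratio was -1.20, -1.29 and -0.98 in pairs 1, 3 and 5 at 4 months and -1.51, -0.67 and -0.57 in pairs 11, 13 and 15 at 10 days. On the arrays with the transgenic RNA in Cy5, it was -1.21, -1.28 and -1.11 at 4 months and -0.82, -0.85 and -0.79 at 10 days, in the same order of pairs. The 4-month pairs were alike on both dyes, and the largest gap between the 2 arrays of a pair was that of pair 11. The mean over the pairs was -1.02 ± 0.25 (SD, n = 6), which is a linear ratio of 0.492, or 2.03 if the ratio is turned. In bulk RNA, fewer cells of a type and less RNA per cell cannot be told apart.

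**Figure D1:**
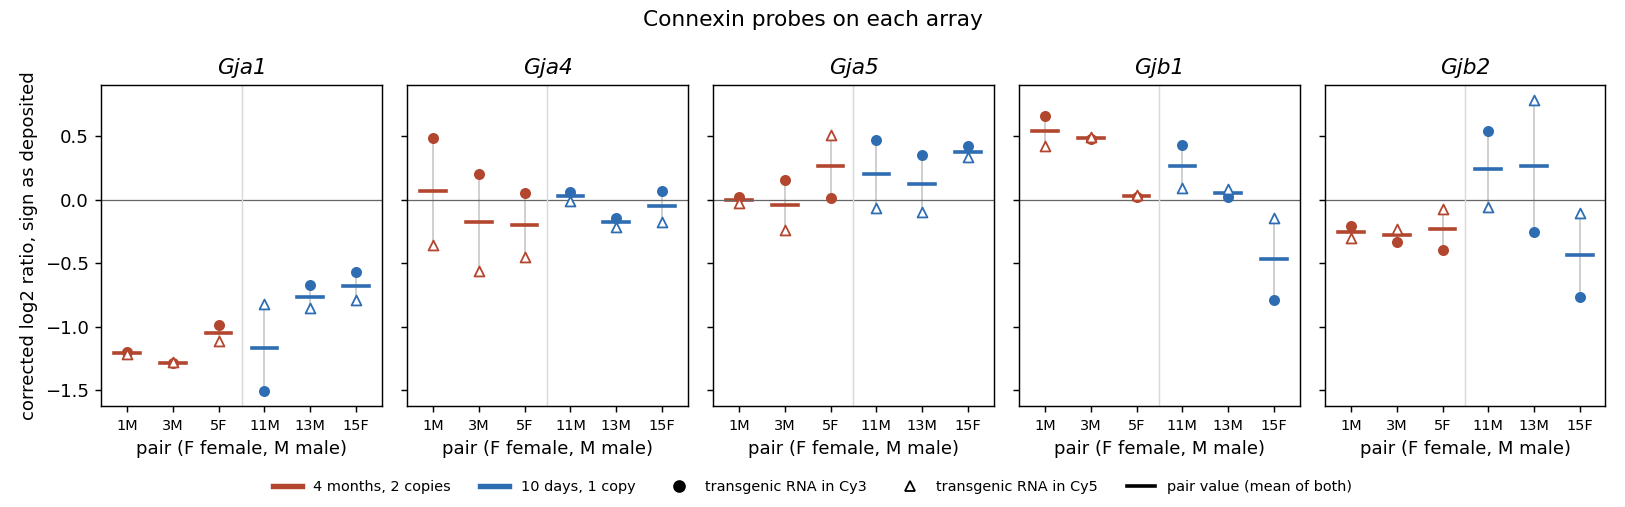
Corrected log2 ratio (vertical axis, sign as deposited) of the 5 connexin probes in each pair (horizontal axis, F female and M male). Filled circles are arrays with the transgenic RNA in Cy3, open triangles arrays with it in Cy5, and bars the pair value; Gja1 lies at or below -0.57 on all 12 arrays while the other 4 genes lie between -0.79 and 0.79.

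Every one of 12 arrays being negative was seen for 89 of 20356 features measured on all arrays (0.437%), and all 6 pairs being negative for 967 (4.75%). Only Gja1 and 1 other feature were at or below the highest Gja1 array, -0.57, on all 12 arrays (0.00983%). The other was Top1mt, the mitochondrial topoisomerase I gene, which is named after its values were seen. By its mean over the pairs Gja1 was 17th from the lowest of 21513 features. These ranks restate the values on which Gja1 was chosen and are no test of it.

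The Gja1 probe was bright, with a signal of 2706 against a median of 295 over all probes. On the Cy3 arrays, the 2 channels can be read back as whole numbers up to a common factor. They were 2302 over 4357 in pair 5, 647 over 1431 in pair 1 and 101 over 188 in pair 3 at 4 months, and 1415 over 3853 in pair 11, 1409 over 2470 in pair 13 and 2147 over 3728 in pair 15 at 10 days. At this signal the dye trend that was taken off lay between -0.23 and 0.46 on the 12 arrays. As deposited, Gja1 ran from -1.45 to -0.80 on Cy3 arrays and from -0.83 to -0.63 on Cy5 arrays, although the medians of all probes ran from -0.68 to -0.22 and from 0.74 to 1.50. Centring each array on its median without the trend gave -1.22 to -0.11 on Cy3 arrays and -2.33 to -1.51 on Cy5 arrays. Every array was negative on each of these scales, so the mean over both dyes was too, at -1.17 after centring and -0.88 as deposited. These means assume that the columns of both dyes run the same way, which was taken from the correlations of the arrays. With the mean of the same-dye arrays removed, these were 0.17 to 0.64 within pairs and -0.30 to 0.15 between pairs. If the Cy5 columns ran the other way, the values would instead be a difference between dyes.

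**Figure D2:**
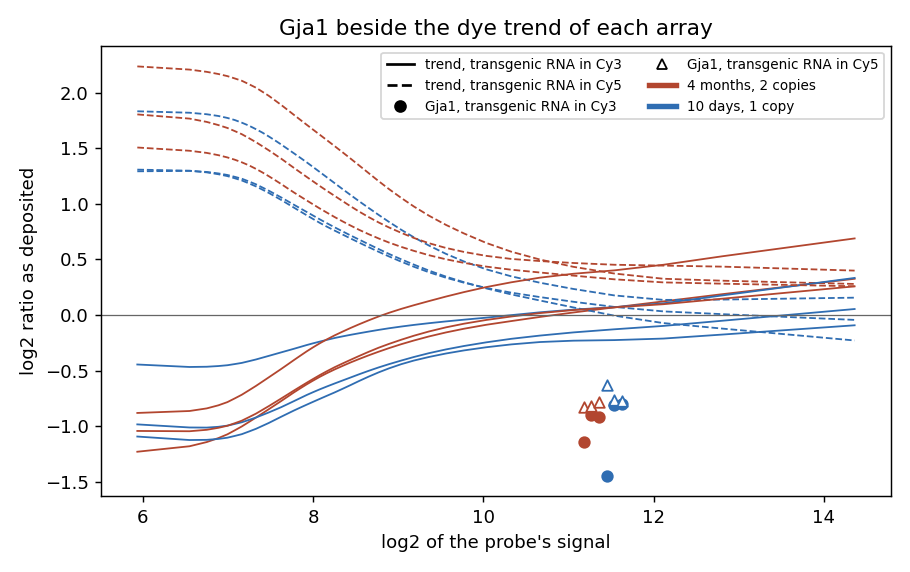
Deposited log2 ratio (vertical axis) against the log2 of the probe's signal (horizontal axis). Lines are the dye trend of each of the 12 arrays and points are Gja1, spread sideways for legibility; Gja1 lies below the trend of every array, and the 2 dye orientations, which part at low signal, are close together at its signal.

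Gja1 was negative at both ages and in both sexes, which restates its choice for the same sign in every pair. Neither the age contrast nor the sex contrast passed the test. The mean was -1.18 ± 0.12 (SD, n = 3) in 4-month pairs and -0.87 ± 0.26 (SD, n = 3) in 10-day pairs. The 4-month minus 10-day difference was -0.31, with a 95% interval of -0.71 to 0.09 (limma, adjusted p = 0.933). It depended on the scale, at -0.028 on the values as deposited and -0.20 after median centring. An exact permutation test of the 3 against 3 pair values gave a two-sided p of 0.2, where the smallest possible is 0.1. The ages overlapped, since pair 11 at -1.17 lay among the 4-month pairs. Without pair 11 the 10-day group holds only -0.76 and -0.68, both above every 4-month pair. That split leaves out a pair after its value was seen and is no test. How many features part in this way was not counted. With all pairs kept, the ages did not overlap for 10.4% of features. The female pairs averaged -0.86 and the male pairs -1.10, and the female minus male difference was 0.24, with a 95% interval of -0.17 to 0.65 (limma with a sex term, adjusted p = 0.921), against 0.099 on the values as deposited. No feature passed either test (4 months minus 10 days, 0%; female minus male, 0%), and 4.56% and 5.76% had an unadjusted p below 0.05. The smallest adjusted p was 0.933 for age and 0.739 for sex.

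The endothelial connexins Gja4 and Gja5 stayed near 0. Gja4 had pair values of 0.07, -0.18 and -0.20 at 4 months and 0.03, -0.18 and -0.05 at 10 days, with a mean of -0.09 ± 0.12 (SD, n = 6). The array values differed more by dye than by pair. Its Cy3 arrays ran from -0.15 to 0.49 and averaged 0.12, and all 6 Cy5 arrays were negative and averaged -0.29. The Cy3 minus Cy5 difference of 0.41 ± 0.34 (SD, n = 6) was positive in all pairs. By their descriptions the Cy3 arrays and the Cy5 arrays were also separate array batches, so dye and array batch cannot be told apart. Of the 5 genes, only Gja4 had a dye difference of one sign in all pairs. This was not particular to Gja4. Of the 11 other connexins, 1 had Cy3 above Cy5 in all pairs and 4 had Cy3 below Cy5. The share of all features with such a difference was not counted. By a stricter measure, in none of the 5 genes did every Cy3 array lie above every Cy5 array, as was the case for 5.11% of features.

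Gja5 had pair values of 0.00, -0.04 and 0.26 at 4 months and 0.20, 0.12 and 0.38 at 10 days, with a mean of 0.15 ± 0.16 (SD, n = 6). The highest value at each age was that of the female pair. The female minus male difference of 0.25, with a 95% interval of -0.10 to 0.60, did not pass the test (limma with a sex term, adjusted p = 0.918). The 4-month minus 10-day differences were -0.03 for Gja4 and -0.16 for Gja5 (limma, adjusted p = 0.990 and 0.936). Markers of endothelium, 12 genes, had medians of -0.09, -0.36 and 0.10 at 4 months and -0.14, 0.03 and 0.12 at 10 days. Markers of arteries and smooth muscle, 9 genes, ran from -0.32 to 0.18 at 4 months and from -0.21 to 0.19 at 10 days, and like Gja5 were highest in the female pair of each age. This was not particular to arteries. The medians of endothelium, of adipocyte markers and of fibroblast and capsule markers were also highest in these pairs. The part of the vessels in the Gja4 and Gja5 values was not tested.

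Gjb1 varied more between pairs than any other of the 5 genes. Its pair values were 0.54, 0.48 and 0.03 at 4 months and 0.26, 0.05 and -0.47 at 10 days, with a mean of 0.15 ± 0.37 (SD, n = 6). At each age the female pair had the lowest value, and both arrays of pair 15 were negative, at -0.79 and -0.14. The female pairs averaged -0.22 and the male pairs 0.34. The female minus male difference of -0.55 had a 95% interval of -0.92 to -0.19 and an unadjusted p of 0.00905, and did not pass the test (limma with a sex term, adjusted p = 0.798). There were 2 female pairs, 1 at each age. The 4-month pairs averaged 0.35 ± 0.28 and the 10-day pairs -0.05 ± 0.38 (SD, n = 3 each). The difference of 0.40, with a 95% interval of -0.13 to 0.94, did not pass the test either (limma, adjusted p = 0.933).

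Gjb2 had the dimmest probe of the 5, with a signal of 150, in the dimmest 25% of the array. Its pair values were -0.25, -0.28 and -0.23 at 4 months and 0.24, 0.27 and -0.43 at 10 days, with a mean of -0.12 ± 0.29 (SD, n = 6). The 4-month pairs were close to each other, with a mean of -0.26 ± 0.02 (SD, n = 3), and the 10-day pairs were spread on both sides of 0, with a mean of 0.02 ± 0.40 (SD, n = 3). The 2 arrays of pair 13 went opposite ways, at -0.26 and 0.79, as did those of pair 11, at 0.54 and -0.06. The 4-month minus 10-day difference was -0.28, with a 95% interval of -0.76 to 0.20 (limma, adjusted p = 0.933). The female minus male difference was -0.33, with a 95% interval of -0.80 to 0.14 (limma with a sex term, adjusted p = 0.918). None of the 5 genes had ages that did not overlap, against 10.4% of all features.

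By their medians, markers of other tissues stood apart in 3 pairs. Markers of hepatocytes, cells in which Gjb1 and Gjb2 are abundant, had a median of 1.42 over 13 genes in pair 11, all 13 positive, with Alb at 6.73 and Ahsg at 5.56. In the other pairs this median ran from -0.04 to 0.21. Pair 11 had the highest 10-day value of Gjb1, one of the 2 positive values of Gjb2, and on its Cy3 array Gja1 had its lowest value. Over all pairs, however, Gjb1 was higher in pairs 1 and 3 (0.54 and 0.48) than in pair 11 (0.26). Gjb2 was highest in pair 13 (0.27), and the lowest pair value of Gja1 was that of pair 3 (-1.28). Adipocyte markers had a median of 1.04 over 7 genes in pair 15, with Adipoq at 5.13 and Cidec at 2.94, and lymphocyte markers one of -1.98 over 7 genes in pair 3, with Cd79b at -5.18 and Cd79a at -4.18. Macrophage markers had medians of -0.18, -1.37 and -0.50 at 4 months and -0.11, -0.05 and 0.62 at 10 days, with all 9 genes negative in pairs 3 and 5. In pairs 1 and 13, where the medians of these 4 lists lay between -0.18 and 0.08, Gja1 was -1.21 and -0.76. Single markers lay farther from 0 in these pairs too, which the medians do not show. In pair 1, Cd79b was at 1.31 and Cd3g at 1.22, and the macrophage genes ran from -1.16 to 0.51. In pair 13, Ahsg was at 0.89 and Alb was higher still. The part of other tissues in the connexin values was not tested.

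Markers of the steroidogenic cortex, whose cells are described to hold connexin43, had medians of -0.20, 0.69 and 0.15 at 4 months and -0.42, -0.13 and 0.20 at 10 days. The single genes ran widely to both sides, from -3.96 to 1.64 over the 6 pairs, and the part of cortex cells in the Gja1 values was not tested. Fibroblast and capsule markers, 10 genes, had medians from -0.22 to -0.03 at 4 months and from -0.25 to 0.32 at 10 days. Chromaffin markers, 9 genes, ran from 0.08 to 0.77 at 4 months and from -0.06 to 0.74 at 10 days. The medians of kidney tubule, exocrine pancreas and Schwann cell and glia markers lay between -0.22 and 0.27 in all pairs.

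**Figure D3:**
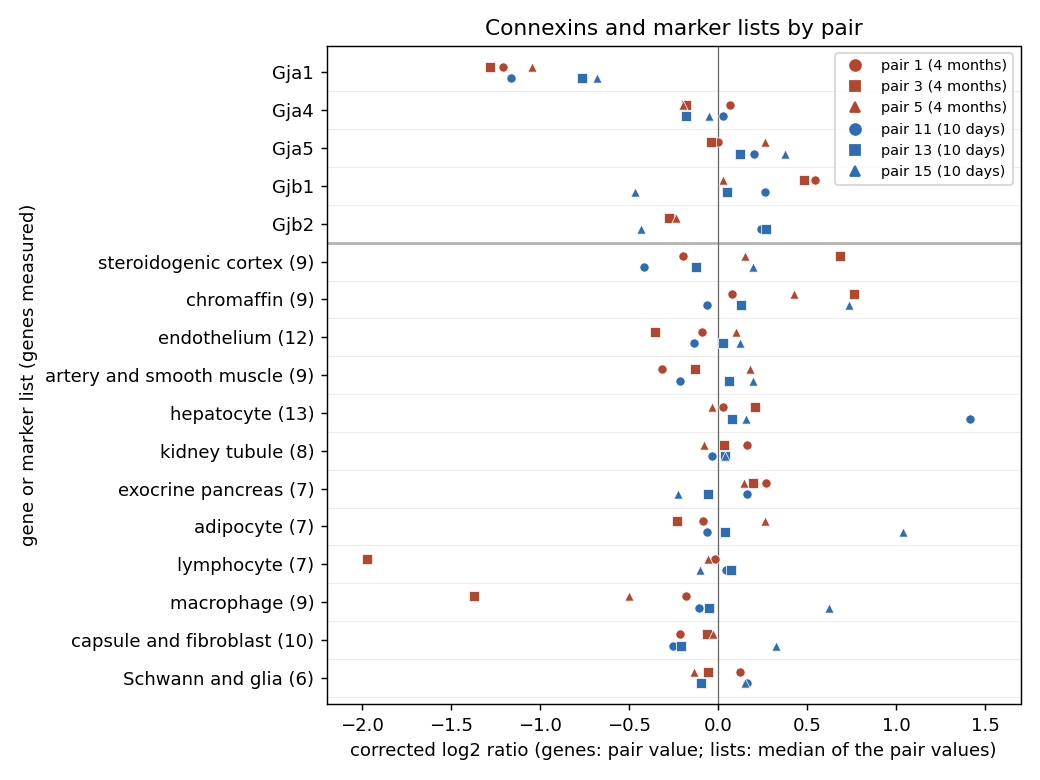
Pair values of the 5 connexins (top) and medians of the pair values of 12 marker lists (bottom), as corrected log2 ratios on the horizontal axis, with 1 symbol per pair and the number of genes measured in brackets. The hepatocyte median of pair 11 (1.42), the adipocyte median of pair 15 (1.04) and the lymphocyte and macrophage medians of pair 3 (-1.98 and -1.37) stand apart, and Gja1 is negative in all pairs.

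Of the 15 other connexin genes listed, 11 had a probe, and none of them had a mean over 6 pairs as far from 0 as that of Gja1. Single arrays reached 1.12, for Gjd2 on the Cy5 array of pair 1. Their median over 6 pairs was 0.07, with 9 of 11 means positive, against a median of -0.01 over all features. None was called over all 6 pairs at an adjusted p below 0.05 in limma, where 12 of 21513 features (0.0558%) were called, 1 of them with a negative ratio (0.00465%). The negative one was Gja1 itself, which was chosen on these values, so this is no test of it. At an unadjusted p below 0.05 there were 3 of 11 over all pairs, against 15% of all features, 4 of 11 at 4 months, against 12.3%, and 1 of 11 at 10 days, against 8.34%. One sign in all 6 pairs was seen for 4 of 11, against 10.4% of features, and 3 of these were positive throughout, against 5.67% of features.

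Gjd3 encodes a connexin known from the atrioventricular node of the mouse heart and was the one with the mean farthest from 0. Its pair values were -0.46, -0.54 and -0.36 at 4 months and -0.17, -0.20 and -0.29 at 10 days. The mean was -0.34 ± 0.15 (SD, n = 6; limma, adjusted p = 0.0991), with all 6 pairs negative. The Cy5 arrays carried most of it. They averaged -0.57 and all were negative, while the Cy3 arrays averaged -0.10 and ran from -0.38 to 0.06. The call depends on the arrays used, since the Cy5 arrays alone gave -0.57 with an adjusted p of 0.0126 in limma. On these arrays alone 15.9% of all features were called, and the dye difference stays within the mean.

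Gjd2, which encodes connexin36 of neurons, chromaffin cells and pancreatic beta cells, was positive in all 6 pairs with a mean of 0.27 ± 0.19 (SD, n = 6; limma, adjusted p = 0.223). Its highest value was 0.65 in pair 1, and the others ran from 0.12 to 0.28. Gjb5, known from skin, and Gjc3, a connexin of myelinating glia, were also positive in all pairs. Their means were 0.15 ± 0.13 and 0.16 ± 0.14 (SD, n = 6 each, adjusted p = 0.370 and 0.382 in limma). The sign of Gjb5 depended on the dye, with an average of 0.39 on Cy5 arrays and -0.08 on Cy3 arrays. Its Cy3 array was negative in every pair except pair 13, where it was 0.44. The Gjb5 probe was dim, with a signal of 170 against a median of 295 over all probes. Gjc3 averaged 0.08 on Cy3 arrays and 0.24 on Cy5 arrays. Gja3, a lens connexin, averaged 0.21 ± 0.24 (SD, n = 6; limma, adjusted p = 0.260), and its Cy3 arrays alone averaged -0.02. Gja6, Gja10, Gjb6, Gjc1 and Gjd4 had means between 0.00 and 0.09 (limma, adjusted p from 0.628 to 0.998).

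The ages did not overlap for 3 of the 11, which were Gja3, Gjd3 and Gje1, against 10.4% of all features. Gje1, a connexin-like gene described in the lens, was positive in all 4-month pairs, at 0.46, 0.28 and 0.30, and negative in all 10-day pairs, at -0.53, -0.06 and -0.20. Its 4-month minus 10-day difference was 0.61, with an unadjusted p of 0.00622, and did not pass the test (limma, adjusted p = 0.933). That order of signs, positive at 4 months and negative at 10 days, was seen for 1.31% of features.

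**Figure D4:**
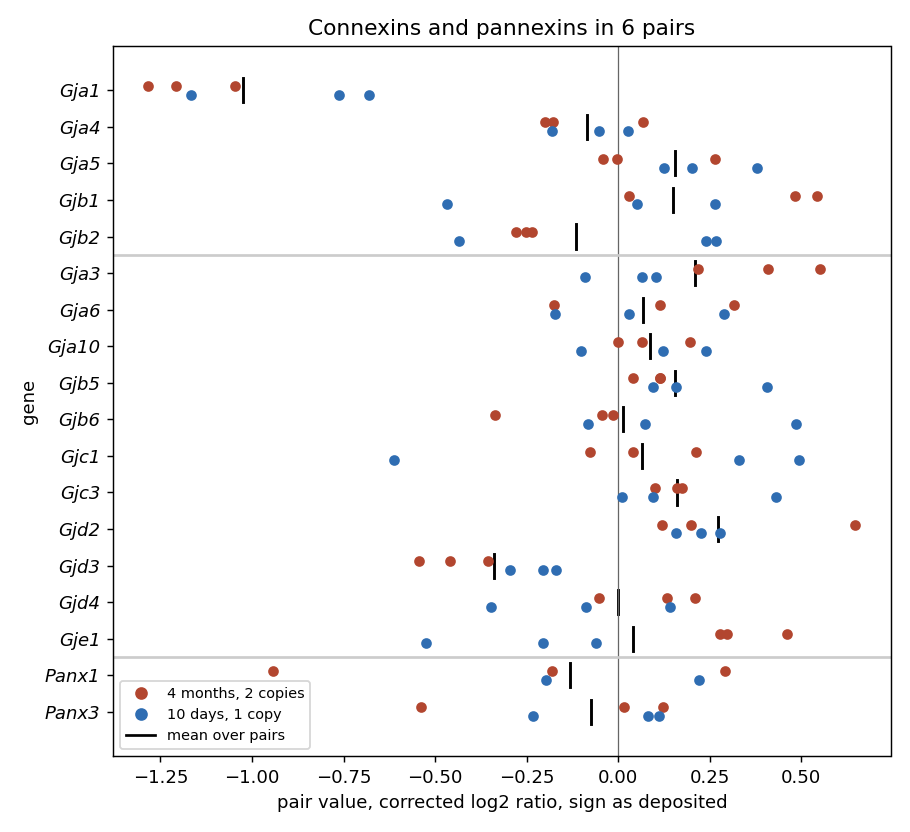
Pair values of the 5 connexins described (top), the 11 other connexins (middle) and 2 pannexins (bottom) as corrected log2 ratios on the horizontal axis, with 4-month pairs and 10-day pairs in separate colours and the mean over pairs as a black tick. Gja1 stands alone near -1.02, and the next lowest connexin mean is that of Gjd3 at -0.34.

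Pannexins form channels in the plasma membrane that are related to gap junction channels in topology but do not usually join cells. Panx1, the widespread one, averaged -0.13 ± 0.49 (SD, n = 5 pairs, since 1 array of pair 13 had no value; limma, adjusted p = 0.776), with the lowest value, -0.94, in pair 3. Panx3, known from skin and cartilage, averaged -0.07 ± 0.26 (SD, n = 6; limma, adjusted p = 0.784).

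Proteins that bind connexins or place them at cell contacts were measured for 14 genes. Their median over 6 pairs was -0.09, with 10 negative and 4 positive means, none was called and 3 of 14 had an unadjusted p below 0.05, against 15% of all features. Cdh2 (N-cadherin, the adhesion protein of adherens junctions) averaged -0.27 ± 0.39 (SD, n = 6; limma, adjusted p = 0.209). All 4-month pairs of Cdh2 were negative, at -0.51, -0.55 and -0.73, while the 10-day pairs were at -0.19, 0.05 and 0.30. The 4-month minus 10-day difference of -0.65 did not pass the test (limma, adjusted p = 0.933). Ages that did not overlap were seen for 10.4% of all features. Ctnna1 (alpha-catenin) averaged -0.34 ± 0.35 and Ctnnd1 (p120-catenin) 0.29 ± 0.26 (SD, n = 6 each; limma, adjusted p = 0.264 and 0.275). Tjp3 (ZO-3, a tight junction scaffold) averaged -0.30 ± 0.68 (SD, n = 6; limma, adjusted p = 0.511), and its lowest value was -1.59 in pair 3.

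Tight junction and desmosome genes, the other contacts of such cells, had a median of 0.03 over 16 genes, with 6 negative and 10 positive means, none called and 2 of 16 with an unadjusted p below 0.05, against 15% of all features. Dsg2 (a desmosomal cadherin) averaged -0.28 ± 0.27 and Marveld2 (tricellulin) -0.16 ± 0.13 (SD, n = 6 each; limma, adjusted p = 0.229 and 0.321). Cldn5 (the claudin of endothelium) averaged -0.31 ± 0.39 and Jam2 (a junctional adhesion molecule) 0.15 ± 0.18 (SD, n = 6 each; limma, adjusted p = 0.353 and 0.398). All 6 pair values of Marveld2 were negative, from -0.32 to -0.0040, and those of the other 3 genes had both signs.

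The 5 genes with pair values nearest to those of Gja1 were found among 17047 named genes measured on all 12 arrays, by the root mean square of the difference over the 6 pairs. In order they were Cyp1b1 (a cytochrome P450 that oxidizes oestradiol and polycyclic hydrocarbons) at 0.353, Stat3 (a transcription factor of cytokine signalling) at 0.381, Scube2 (a secreted glycoprotein that helps release hedgehog ligands) at 0.421, Cep131 (a centrosomal protein) at 0.437 and Steap1 (of a family of metalloreductases) at 0.441, on the log2 scale. Their means over 6 pairs were -0.77 for Cyp1b1, -0.75 for Stat3, -0.70 for Scube2, -1.11 for Cep131 and -0.92 for Steap1. Each varied more between pairs than Gja1, with SDs from 0.42 to 0.53, against 0.25 for Gja1. Cyp1b1, Cep131 and Steap1 were negative on all 12 arrays, Stat3 on 11 and Scube2 on 10. The likeness and the spreads are a description over the 6 pairs, on whose values Gja1 was chosen.

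**Figure D5:**
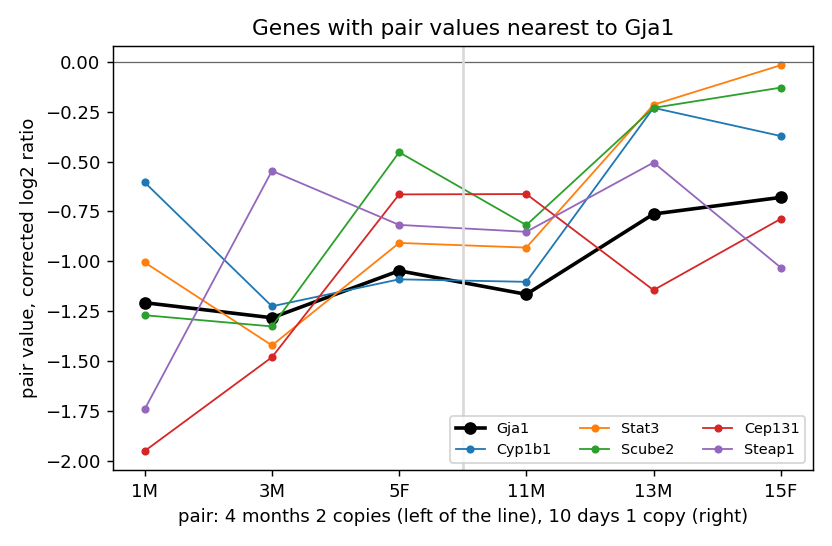
Pair values of Gja1 (black) and of the 5 genes nearest to it by root mean square difference, as corrected log2 ratios on the vertical axis, by pair on the horizontal axis with the 4-month pairs left of the line and the 10-day pairs right of it. All 6 genes are negative in every pair, and Stat3 and Scube2 come close to 0 in pair 15.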

How the data were processed

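Adrenal RNA of 6 pairs of a transgenic mouse and a wild-type littermate was measured on 12 arrays. The deposited log2 ratios were used. Their base was found from the 6 Cy3 arrays, where all spots (100%) gave a fraction of whole numbers up to 65535 in base 2 (relative tolerance 1e-13), and at most 0.664% did so in base 10. The authors' scanner, background subtraction and normalization: not given in the sources used here. Probe sequences and proteins were not used here. Since the values followed signal and dye, a loess curve of the ratio on signal (span 0.3) was taken off each array. A probe's signal was the 75th percentile, over the Cy3 arrays, of the geometric mean of the recovered whole numbers, known for 24641 probes. How far probes lay above background is unknown. The precision is limited by the number of arrays.

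The columns were not turned: with the mean of the same-dye arrays removed, correlations were 0.17 to 0.64 within pairs and -0.30 to 0.15 over the 30 combinations between pairs. As deposited, they were -0.50 to -0.10 within pairs. This bears on whether both dyes run the same way and not on which way that is.

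Of the probes, 21082 had 1 gene, 30 several and 4232 none in the platform table, and 20456 matched RefSeq by gene ID. Probes of a gene were averaged, then the 2 arrays of a pair, both needed. Features with at least 2 pairs per age, 21513 in all (17882 named), were fitted in limma 3.58.1 (R 4.3.3) with a mean per age, or with sex added for 21504 features. Tests were two-sided, with Benjamini-Hochberg adjustment over all features and a threshold of 0.05. The procedure was tested on simulated data. The pairs are separate mice, so p-values measure the spread between pairs.

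The genes described and all gene lists were chosen with earlier results of these data known. The text names every connexin and pannexin with a probe, 4 genes each of the partner and of the tight junction and desmosome lists by smallest unadjusted p, the 5 genes nearest to Gja1, and of marker lists the 2 genes farthest from 0 in a pair spoken of. Macrophage and cortex genes are given by their medians and ranges only. Alternatives were median centring, the values as deposited, each dye alone, leaving out the dimmest 25% of probes, an ordinary linear model, a sex term, single arrays with a dye term and the pair as a random block, each pair left out and each probe on its own.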

Additional observations from a re-analysis of the deposited data

Results flagged for a closer look

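Of 19 genes looked at (the 5 connexins described, the 11 others, 2 pannexins and Nr5a1), 2 had a pair far from the other pairs, and chance flags about 1 in 20 such sets. Gjd2 was at 0.65 in pair 1, against 0.12 to 0.28 in the other 5 pairs. Gjb5 was at 0.41 in pair 13, against 0.04 to 0.16 in the others. Neither gene was called, and none of the 5 connexins described had such a pair.

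Gje1 had opposite signs at the 2 ages in every pair, with a 4-month minus 10-day difference of 0.61. The test of that difference across all features did not pass (limma, adjusted p = 0.933).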

How the results depend on the processing

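The mean of Gja1 over 6 pairs ran from -1.17 (median centring) to -0.88 (values as deposited), and from -1.07 to -0.95 when a pair was left out. It was negative under every alternative run. That sign is no test, since Gja1 was chosen for the same sign in every pair and was negative on every array on each scale. The 4-month mean of Gja1 moved to -0.90 on the values as deposited. On that scale the means over 6 pairs of the others were all positive, at 0.096 for Gja4, 0.46 for Gja5, 0.44 for Gjb1 and 0.23 for Gjb2. The 4-month means of Gja4 and Gjb2 were then 0.19 and 0.15, and the 10-day means of Gja4 and Gjb1 0.00043 and 0.14. These 4 age means, and the means over 6 pairs of Gja4 and Gjb2, were negative after the dye correction. The 4-month minus 10-day difference of Gja4 was 0.015 after median centring, 0.19 as deposited, 0.25 on Cy3 arrays and -0.12 to 0.013 with a pair left out (above 0 without pair 3, 5 or 11), and that of Gja5 was 0.017 as deposited and 0.027 on Cy5 arrays. The female minus male difference of Gja4 was 0.041 after median centring and -0.14 to 0.025 with a pair left out (above 0 without pair 1 or 5), that of Gja5 was -0.018 as deposited and -0.030 on Cy3 arrays, and that of Gjb2 was -0.69 (without pair 5) to 0.031 (without pair 15). The mean of Gja3 was -0.018 on Cy3 arrays. The causes were not tested.

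The number of features called over 6 pairs, 12 in all, was 0 after median centring, 5964 as deposited, 1411 on Cy3 arrays, 3439 on Cy5 arrays, 1 with the ordinary linear model, 0 with sex added, 774 from single arrays and 54 with each probe on its own. Leaving out a pair gave 0 to 15: 0 without pair 1, 3, 13 or 15 and 4 without pair 11. No feature was called at 4 months, against 2548 as deposited, 288 on Cy3 arrays, 915 on Cy5 arrays, 291 from single arrays and 0 to 5 without a pair (5 without pair 5). None was called at 10 days, against 18 as deposited, 31 on Cy3 arrays, 222 on Cy5 arrays, 74 from single arrays and 0 to 1 without a pair (1 without pair 11). For the difference between the ages, 16 were called as deposited. Fits on 1 dye or on deposited values hold the dye difference within the mean.

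Over 6 pairs the calls were 27.7% of features as deposited, 15.9% on Cy5 arrays and 3.56% from single arrays. Other connexins called over 6 pairs, 0 of 11, became 9 as deposited, 4 on Cy5 arrays and 1 from single arrays (Gjd3, -0.34, adjusted p = 0.0303 in limma). Connexin partners became 2 of 14 as deposited and 1 on Cy5 arrays, and tight junction and desmosome genes 4 and 2 of 16. Gjb2 has no value without the dimmest probes. No paired analysis was possible because the 2 ages share no pair number. The littermate is already within each ratio. Signal over background is unknown, so what dim probes such as that of Gjb2 can show is not known either.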
